A study of Sus scrofa and Bos taurus with 31 samples.

Results

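Chromatin accessibility was examined at 6 genes of macrophages, SPI1, CSF1R, CD14, CD68, CD163 and MARCO, out of 20674 protein-coding genes in the RefSeq annotation of the pig genome (Sscrofa11.1). The genes were chosen by name, with earlier results of these data known, and each was taken with 10 kb on either side. The data were lists of open chromatin peaks from ATAC-seq, in which a transposase cuts DNA that is not wrapped up and so marks accessible sites. The 16 pig libraries came from 8 tissues (spleen, lung, liver, adipose, skeletal muscle, cerebral cortex, hypothalamus and cerebellum) of the same pair of animals, P348 and P350, which were castrated male Yorkshire littermates killed at 6 months. Nuclei had been frozen after isolation from fresh tissue. Each tissue therefore held 1 library per animal, both animals were brothers, and the p-values measure the spread between these 2 animals. The series held 31 libraries in all, and those of cattle were not compared.

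Macrophages are phagocytes that live in nearly every organ, where they clear dying cells, old red blood cells and microbes. Many settle before birth and take on a form of their own in each place, such as the red pulp macrophages of the spleen, the Kupffer cells of the liver, the alveolar macrophages of the lung and the microglia of the brain. Their identity rests on the transcription factor PU.1, the product of SPI1, and their survival on signals through the receptor CSF1R. The other 4 genes encode proteins of the macrophage surface and lysosome. All libraries were made from whole tissue, in which fewer cells of a type and less accessibility per cell cannot be told apart.

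The libraries held between 99960 and 217308 peaks covering 64.1 to 156 Mb. The accessibility of a gene was given as the peak bases in its window per Mb of all peak bases of the library. The median gene stood at 25.8 on this scale at the median library, but at 10.6 and 16.2 in the cerebellum of P348 and P350, whose lists were the longest. The summed levels of the tissue marker genes, by the mean of both libraries, were highest in the labelled tissue for liver, skeletal muscle, cerebral cortex and hypothalamus. The hypothalamus markers did not separate, at 143 and 200 in hypothalamus (lower library first) and 170 in both liver libraries. Those listed for lung, adipose, cerebellum and spleen (CD79B, TLX1 and NKX2-5) were highest in another tissue. The spleen libraries did hold the highest summed levels of the B cell markers (383 and 455, against 158 to 342 elsewhere) and of the T cell markers (342 and 394, against 24.8 to 219 elsewhere).

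SPI1 (chr2:15227850-15245679, plus strand) encodes PU.1, an ETS family factor that opens myeloid enhancers. Its window held 3 to 6 peaks per library. Peak bases per Mb, P348 first, were 28.6 and 73.4 in adipose, 54.9 and 36.8 in liver, 40.8 and 49.5 in lung, 60.2 and 29.9 in spleen, 37.6 and 37.4 in skeletal muscle, 24.4 and 36.5 in hypothalamus, 18.8 and 23.8 in cerebral cortex, and 8.08 and 14.3 in cerebellum. The first 5 tissues of this order overlapped each with the next. Both cerebellum libraries lay below all the others, as they did at 33.8% of all genes. The animals differed most in adipose (51.0 ± 31.7, SD, n = 2) and spleen (45.1 ± 21.4, SD, n = 2). Of 66 merged regions in the 6 windows, 8 belonged to SPI1.

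A peak lay within 2 kb of an SPI1 transcription start site (TSS) in 15 of 16 libraries, all but skeletal muscle of P350. Across protein-coding genes, 70.8% to 81.2% had such a peak in a given library and 54.9% had one in all 16. The fold enrichment that the peak caller listed for the SPI1 start region was 5.18 and 5.10 in spleen, and 2.33 to 3.86 in the 13 other libraries. The spleen peaks thus had the 2 highest listed folds in this merged region. Not all of its peaks lay at the same site. A peak covered the start at position 15227850 in 11 libraries and that at 15227931 in 12. The peak of adipose of P350 touched neither spleen peak.

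Outside the promoter, an intronic region centred 3834 bp into SPI1 was open in 15 libraries, with hypothalamus of P348 the exception. Its listed fold was 8.46 and 6.89 in liver, 6.38 and 5.96 in cerebral cortex, and 4.62 and 4.24 in spleen. A region centred 6097 bp upstream, singled out after its values were seen, was listed in both animals of liver (7.23 and 5.56), spleen (4.47 and 3.22) and lung (3.47 and 3.08). It was also listed in adipose of P348 (2.17) and skeletal muscle of P350 (2.57), and was absent from the 6 brain libraries. A region over the last exons was listed in all 16 libraries, and its edge lay 1782 bp from the start of the neighbouring MYBPC3, the cardiac myosin binding protein C gene. The most covered 300 bases of the intronic region (chr2:15232007-15232306, plus strand) are given because no other region of SPI1 outside its exons and promoter was so widely open. In this and the later sequences, capitals mark matches on either strand to 5 motifs, which were GAGGAAG (an ETS site of the PU.1 type), GGGCGG (SP1 type), TGANTCA (AP-1 type), TTGCNNAA (C/EBP type) and the TATA box (letters TATAAA). None of them matched there, so the sequence holds no capitals.

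SPI1 intron: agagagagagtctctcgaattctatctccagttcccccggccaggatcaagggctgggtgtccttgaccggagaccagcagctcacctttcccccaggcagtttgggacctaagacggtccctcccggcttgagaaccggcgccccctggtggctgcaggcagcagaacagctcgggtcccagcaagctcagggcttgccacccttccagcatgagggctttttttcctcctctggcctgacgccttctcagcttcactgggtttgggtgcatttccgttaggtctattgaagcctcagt

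CSF1R (chr2:151102138-151130311, minus strand) encodes the receptor for the growth factors CSF1 and IL34. Its window held 1 to 8 peaks per library. Peak bases per Mb, P348 first, were 100.2 and 70.4 in spleen, 88.4 and 76.2 in skeletal muscle, 46.6 and 29.6 in liver, 31.3 and 34.2 in cerebral cortex, 20.9 and 40.6 in lung, 13.7 and 24.8 in hypothalamus, 13.8 and 8.80 in adipose, and 2.61 and 9.82 in cerebellum. The 4 libraries of spleen and skeletal muscle stood above the other 12, and did not separate from each other. The share of all genes with that joint separation was not computed. Skeletal muscle alone had both libraries above all others at 17.9% of genes, and spleen alone at 8.5%. From liver downwards each tissue overlapped the next. The mean in spleen was 85.3 ± 21.0 (SD, n = 2) and that in cerebellum 6.22 ± 5.09 (SD, n = 2), and the highest tissue mean was 13.7 times the lowest, a wider span than at the other 5 genes (3.18 to 6.54 times).

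The annotation gives CSF1R 3 start sites. The outermost (position 151130311) lay under a peak in 0 libraries, the next (151129613) in 11 and the innermost (151128861) in 5. Counting any peak within 2 kb, 12 libraries had one. The start region was listed at 3.17 and 3.05 fold in spleen and at 2.06 to 2.66 fold in 9 other libraries. An intron within 2 kb of the innermost start held a region open in 11 libraries, among them both animals of spleen (3.08 and 3.22), liver (3.31 and 2.38), cerebral cortex (2.77 and 3.11), hypothalamus (2.47 and 2.25) and lung (2.17 and 2.03). An intronic region centred 19114 bp from the nearest TSS was open in 12 libraries, in both animals of spleen, lung, liver, skeletal muscle and cerebral cortex. In skeletal muscle its peaks were wide and low, at 2.01 and 2.34 fold. A region 8564 bp upstream, singled out after its values were seen, reached 3.91 and 3.64 fold in spleen and was listed in only 2 other libraries (adipose of P348 and lung of P350). The 250 bases before the innermost TSS (chr2:151128862-151129111, minus strand) and the most covered 300 bases of the distant intronic region (chr2:151109386-151109685, minus strand) are shown side by side, since the promoter was open in 6 libraries and the intron in 12. All 3 CSF1R transcripts are predicted models, and the innermost start was taken because the window before the middle one, the start most often under a peak, overlaps an exon. The sequence therefore does not stand for the most open start.

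CSF1R promoter: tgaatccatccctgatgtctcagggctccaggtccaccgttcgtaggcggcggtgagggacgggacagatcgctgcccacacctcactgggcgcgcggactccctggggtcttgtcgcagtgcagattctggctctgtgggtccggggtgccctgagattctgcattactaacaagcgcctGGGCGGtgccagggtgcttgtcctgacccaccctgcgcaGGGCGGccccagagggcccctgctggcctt
CSF1R intron: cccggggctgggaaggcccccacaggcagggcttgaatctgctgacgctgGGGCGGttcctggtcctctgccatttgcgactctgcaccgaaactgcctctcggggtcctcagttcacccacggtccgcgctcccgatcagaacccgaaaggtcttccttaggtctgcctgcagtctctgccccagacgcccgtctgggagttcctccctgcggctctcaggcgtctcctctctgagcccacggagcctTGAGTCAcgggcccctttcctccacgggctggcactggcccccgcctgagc

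The CSF1R promoter held 2 matches to GGGCGG and none to GAGGAAG. Of 20667 promoter windows of the same length, 26.2% held at least 2 matches to GGGCGG and 9.8% at least 1 to GAGGAAG. The intron held 1 match to GGGCGG and 1 to TGANTCA. The central 300 bases of all spleen P348 peaks of that length held these in 25.6% and 9.0% of cases.

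CD14 (chr2:142348036-142349686, minus strand) encodes the co-receptor that hands bacterial lipopolysaccharide to TLR4. It is a short gene among close neighbours, so that 53.7% of its window lay within 2 kb of the TSS of another gene (TMCO6 and LOC100513976). Peak bases per Mb, P348 first, were 39.9 and 70.6 in adipose, 55.8 and 41.2 in liver, 44.0 and 51.1 in skeletal muscle, 35.0 and 18.4 in spleen, 25.6 and 22.4 in cerebral cortex, 24.8 and 19.3 in hypothalamus, 23.6 and 15.9 in lung, and 3.28 and 13.6 in cerebellum. Adipose, liver and skeletal muscle lay above the other 5 tissues, and cerebellum below the other 7. The share of all genes with the first separation was not computed, and cerebellum lay below all others at 33.8% of genes. Neither separation held without the bases near other genes' starts, where the median library fell from 25.2 to 14.1. Adipose of P348 then stood at 13.1 and skeletal muscle of P348 at 15.6. Both lay below cerebral cortex of P348 (17.3) and spleen of P348 (20.1), although liver of P348 was still the highest library (22.03). Spleen of P350 stood at 0, below cerebellum of P350 (1.62). The region over the CD14 gene and its start was open in 14 libraries, at 2.46 to 3.46 fold. It was absent from cerebellum of P348 and from spleen of P350, while spleen of P348 had the highest fold of all. Within 2 kb of the start, 15 libraries had a peak, but in spleen of P350 this was the peak of TMCO6, whose start lies 2320 bp away and was open in all 16. In liver a strong region at the LOC100513976 start, at 7.22 and 6.65 fold, also lay in the window. The CD14 promoter (chr2:142349687-142349936, minus strand, open in 12 libraries) held a single match, to TGANTCA, starting 15 bases before the TSS. That motif was found in 5.5% of promoter windows of the same length.

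CD14 promoter: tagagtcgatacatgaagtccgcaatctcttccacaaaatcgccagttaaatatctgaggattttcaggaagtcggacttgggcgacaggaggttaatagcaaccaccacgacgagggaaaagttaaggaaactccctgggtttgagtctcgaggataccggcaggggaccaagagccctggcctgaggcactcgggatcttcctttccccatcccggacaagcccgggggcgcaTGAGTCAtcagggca

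CD68 (chr12:52874754-52877256, plus strand) encodes a glycoprotein of the lysosome membrane that is widely used to stain macrophages. Its neighbours EIF4A1, MPDU1 and SOX15 start within the window, and 51.9% of the window lay within 2 kb of such a start. Peak bases per Mb, P348 first, were 58.8 and 79.2 in skeletal muscle, 70.9 and 65.7 in spleen, 68.2 and 43.7 in liver, 46.8 and 36.0 in hypothalamus, 38.3 and 37.1 in lung, 32.0 and 43.2 in adipose, 32.5 and 30.8 in cerebral cortex, and 7.54 and 20.3 in cerebellum. Neighbouring tissues in this order overlapped, except that cerebellum lay below all, as it did at 33.8% of all genes. Without the bases near other genes' starts the median library fell from 40.7 to 3.0. What then remained was 22.5 and 18.8 in spleen, 6.50 and 16 in skeletal muscle, 5.14 and 10.1 in lung, 10.2 and 0 in liver, 5.78 and 0.865 in adipose, and at most 0.341 in each of the 6 brain libraries. On that measure both spleen libraries stood above the other 14. The share of all genes with such a separation was not computed for it. On the main measure 8.5% of genes had both spleen libraries above all others.

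The region over the CD68 start was listed in 8 libraries, at 2.06 to 2.89 fold. These were both libraries of spleen, lung and skeletal muscle, and those of P348 in liver and adipose. The peak covered the start itself in 7 of them, all but adipose of P348. None of the 6 brain libraries had a peak in the region. The CD68 promoter (chr12:52874504-52874753, plus strand, open in 7 libraries) is shown because its start had no peak in any brain library.

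CD68 promoter: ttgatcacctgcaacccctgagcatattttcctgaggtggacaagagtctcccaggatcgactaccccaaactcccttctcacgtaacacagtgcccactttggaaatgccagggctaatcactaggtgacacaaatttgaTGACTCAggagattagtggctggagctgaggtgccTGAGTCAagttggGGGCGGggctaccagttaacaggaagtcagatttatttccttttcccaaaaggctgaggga

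It held 2 matches to TGANTCA, starting 109 and 74 bases before the TSS, and 1 match to GGGCGG 61 bases before it. At least 2 matches to TGANTCA were found in 0.203% of promoters, and at least 1 to GGGCGG in 44.4%.

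CD163 (chr5:63300200-63334497, plus strand) encodes the scavenger receptor for haemoglobin bound to haptoglobin. Its window held 2 to 11 peaks per library. Peak bases per Mb, P348 first, were 55.3 and 29.3 in cerebellum, 41.4 and 36.5 in spleen, 27.5 and 19.4 in skeletal muscle, 25.3 and 21.1 in hypothalamus, 26.2 and 19.4 in liver, 23.3 and 14.1 in lung, 16.9 and 7.85 in adipose, and 5.14 and 16.6 in cerebral cortex. Spleen overlapped cerebellum and lay above the other 6 tissues. The share of all genes with that separation was not computed, and 8.5% had both spleen libraries above all others. In cerebellum the bases were spread over 11 and 9 peaks, against 5 in each spleen library and at most 4 elsewhere.

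The CD163 start was closed in most libraries: 2 of 16 (cerebellum of P348 and spleen of P350) had a peak within 2 kb. A start open in at most 2 libraries was found for 14.4% of protein-coding genes. The 2 most widely open regions lay inside the gene, centred 14638 bp and 23600 bp from the nearest TSS, each in 14 libraries at similar fold (2.52 to 3.47 and 2.36 to 4.46). A pair of other regions, singled out after their values were seen, differed more between tissues. One centred 3356 bp into the gene and touching an exon was listed at 10.8 and 11.7 fold in skeletal muscle, against 2.61 to 3.50 in the 6 other libraries that had it. The other, 5979 bp into the gene, was highest in spleen (6.86 and 4.14), was also listed in both animals of liver (4.11 and 3.35), and was absent from cerebral cortex, hypothalamus and skeletal muscle. The most covered 300 bases of the intronic region 14638 bp into the gene (chr5:63314757-63315056, plus strand) stand for the widely shared part of CD163, and held no match to the 5 motifs.

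CD163 intron: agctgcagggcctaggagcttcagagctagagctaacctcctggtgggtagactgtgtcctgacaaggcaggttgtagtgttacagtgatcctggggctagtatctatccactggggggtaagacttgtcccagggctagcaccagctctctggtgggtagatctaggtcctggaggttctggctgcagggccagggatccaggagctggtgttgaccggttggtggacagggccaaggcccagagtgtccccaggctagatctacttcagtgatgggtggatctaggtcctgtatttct

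MARCO (chr15:24502935-24541286, plus strand) encodes a scavenger receptor with a collagen-like stalk that binds bacteria and inhaled particles. Its window held 1 to 11 peaks per library. Peak bases per Mb, P348 first, were 54.7 and 56.9 in cerebellum, 41.0 and 50.2 in hypothalamus, 28.3 and 55.2 in lung, 41.3 and 37.1 in liver, 45.1 and 31.8 in spleen, 12.9 and 36.4 in cerebral cortex, 22.7 and 21.6 in adipose, and 28.5 and 6.61 in skeletal muscle. Cerebellum stood apart from hypothalamus but not from lung of P350, and the other neighbours in this order overlapped. A peak lay within 2 kb of the start in 8 libraries, in both animals of lung, liver and cerebellum and in 1 animal each of spleen and hypothalamus.

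A region of 281 bp centred 5387 bp upstream of the TSS, singled out after its values were seen, was open in both animals of lung (3.14 and 4.33 fold) and of spleen (3.72 and 3.38 fold) and in none of the 12 other libraries. A pair of regions inside the gene, also singled out afterwards and centred 24262 bp and 34887 bp from the TSS, were highest in liver. The first was at 7.14 and 5.42 fold there against 2.12 to 3.56 in 10 other libraries, and the second at 5.81 and 4.68 against 2.00 to 3.07 in 6. Not all these peaks lay at the same site. In the first region those of adipose of P350 and cerebellum of P348 did not touch the liver peaks. In the second that of cerebellum of P348 did not. A region 43042 bp from the TSS, beyond the end of the gene, was open in all 16 libraries at 2.81 to 7.06 fold. The promoter (chr15:24502685-24502934), the region shared by lung and spleen (chr15:24497408-24497688) and the most covered 300 bases of the region open everywhere (chr15:24545839-24546138), all on the plus strand, are set together to show the 3 kinds of pattern.

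MARCO promoter: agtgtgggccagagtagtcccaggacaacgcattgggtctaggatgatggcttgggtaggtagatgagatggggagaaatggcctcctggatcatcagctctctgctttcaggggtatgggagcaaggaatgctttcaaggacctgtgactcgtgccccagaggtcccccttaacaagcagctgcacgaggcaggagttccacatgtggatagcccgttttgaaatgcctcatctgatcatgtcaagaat
MARCO lung and spleen region: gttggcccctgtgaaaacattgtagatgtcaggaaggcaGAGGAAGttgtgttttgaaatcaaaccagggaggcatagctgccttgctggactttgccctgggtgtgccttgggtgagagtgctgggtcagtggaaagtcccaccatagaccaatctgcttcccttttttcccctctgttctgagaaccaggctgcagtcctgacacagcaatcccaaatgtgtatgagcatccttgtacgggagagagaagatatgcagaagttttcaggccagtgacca
MARCO region open in all libraries: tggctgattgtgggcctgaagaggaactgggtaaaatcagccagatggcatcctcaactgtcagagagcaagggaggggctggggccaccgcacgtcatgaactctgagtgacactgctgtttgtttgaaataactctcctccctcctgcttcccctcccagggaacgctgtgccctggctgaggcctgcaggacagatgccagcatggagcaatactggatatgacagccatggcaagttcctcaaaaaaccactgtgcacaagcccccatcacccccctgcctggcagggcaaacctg

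The lung and spleen region held 1 match to GAGGAAG, a pattern present in 15.3% of the central 281 bases of spleen P348 peaks. The promoter and the region open everywhere held no match to the 5 motifs.

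**Figure D1:**
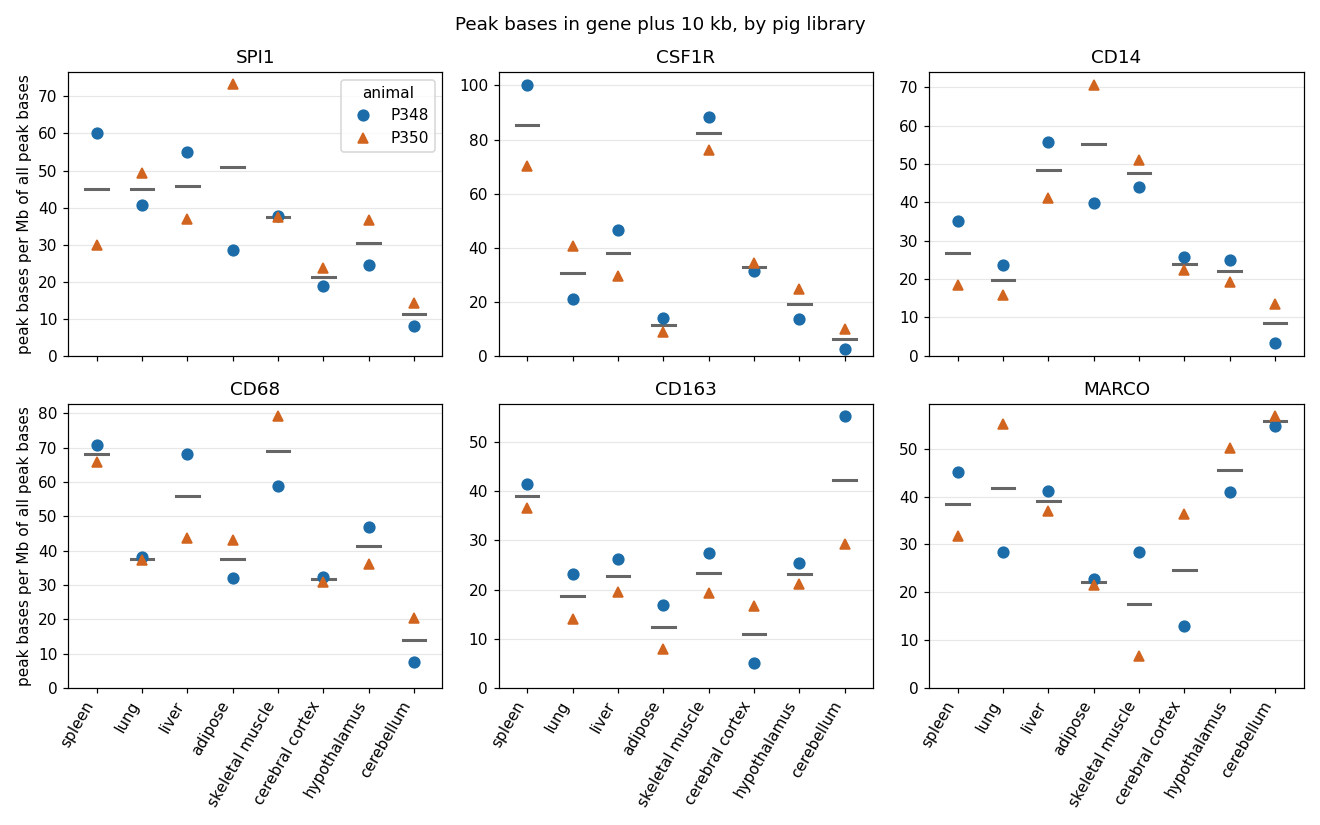
Peak bases in each gene with 10 kb on either side, per Mb of all peak bases (vertical axis), by tissue, with circles for P348, triangles for P350 and bars for the mean of both. CSF1R reaches 70.4 to 100.2 in spleen and skeletal muscle, whereas CD163 and MARCO have their highest tissue mean in cerebellum.

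**Figure D2:**
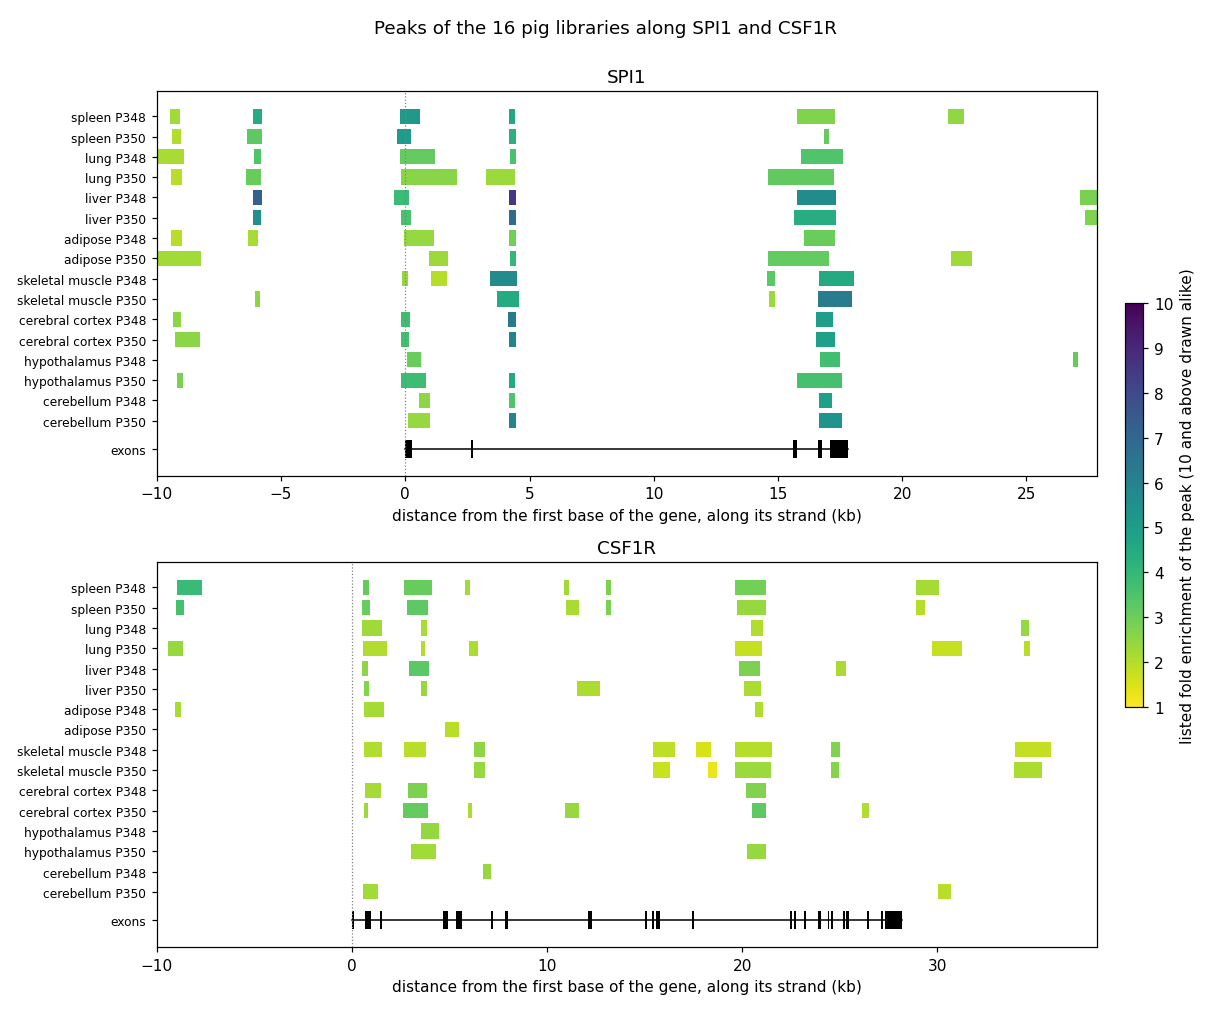
Peaks of each pig library (rows) along SPI1 and CSF1R, by distance from the first base of the gene in kb, coloured by listed fold enrichment, with exons below. SPI1 has shared peaks at its start, inside its long intron and at its end, and CSF1R has most peaks in spleen and skeletal muscle.

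**Figure D3:**
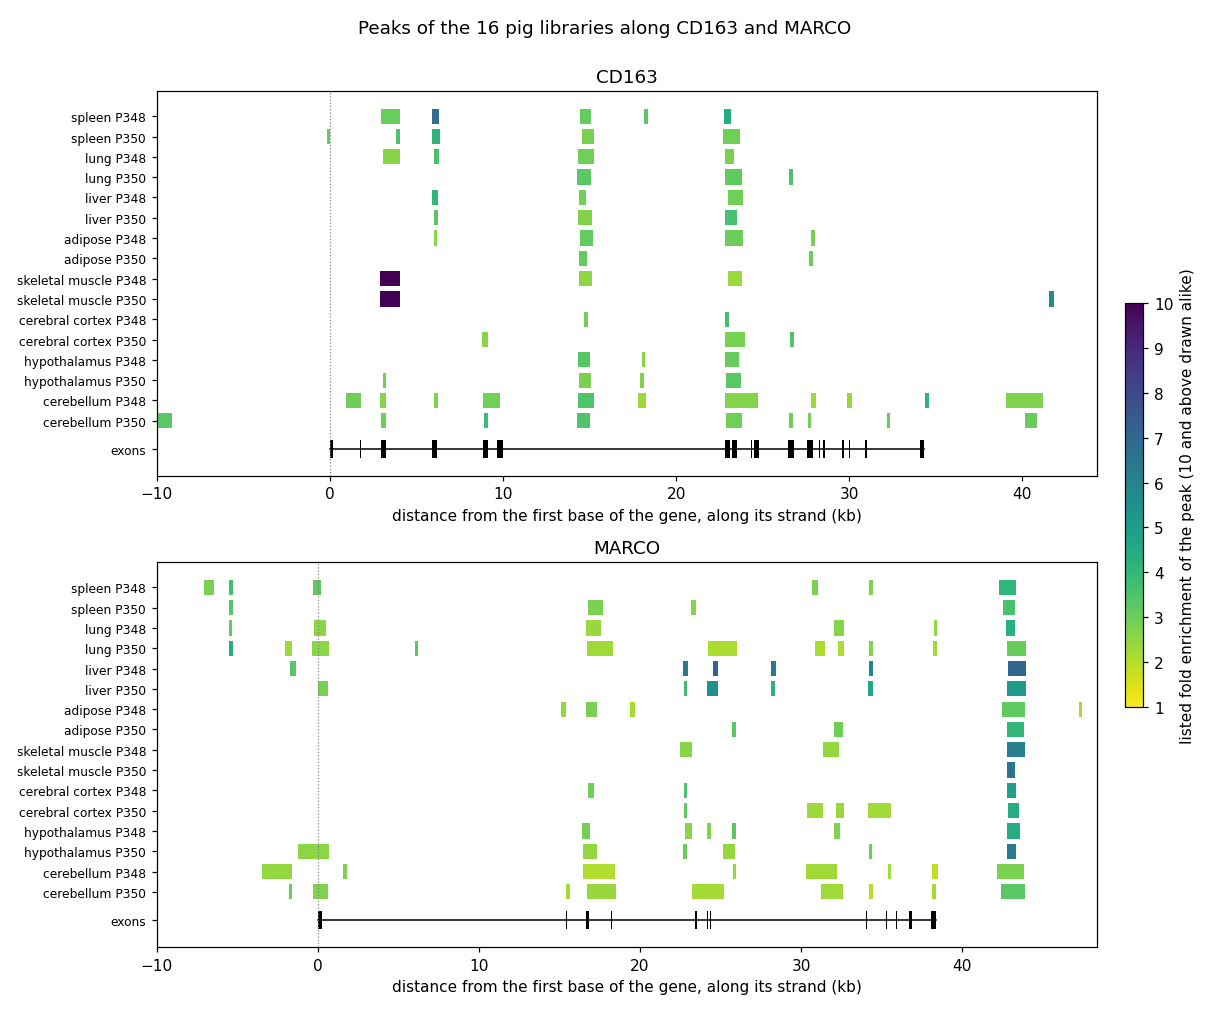
Peaks of each pig library (rows) along CD163 and MARCO, drawn in the same way, with fold of 10 and above in the darkest shade. The darkest CD163 peaks are the 2 of skeletal muscle, and the region 5387 bp upstream of MARCO appears in the 4 lung and spleen libraries.

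Levels were compared between genes per length, as the share of the window in peaks divided by the share of the genome in peaks. By that measure the median library was at 4.53 for CD68, 2.92 for CD14, 2.43 for SPI1, 1.58 for CSF1R and for MARCO, and 1.02 for CD163. CD68, whose window holds several active starts, stood at percentile 98.7 of protein-coding genes at the median library, and CD163 at percentile 39.3.

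Whether accessibility differed among the 8 tissues was tested with limma on log2(peak bases per Mb + 5) over 19638 genes. At an adjusted p (Benjamini-Hochberg) under 0.05, 71.5% of genes differed, and so did 5 of the 6 macrophage genes, a share near that of all genes. The adjusted p was 5.13e-04 for CSF1R, 0.00340 for CD68, 0.00528 for CD14, 0.0214 for SPI1, 0.0277 for CD163 and 0.0788 for MARCO. The call of SPI1 was lost without either cerebellum library (adjusted p of 0.164 without P348 and 0.0599 without P350). That of CD163 was lost without cerebellum of P348 (0.0858), cerebral cortex of P348 (0.0529), spleen of P348 (0.0630) or spleen of P350 (0.0537), and MARCO passed without cerebral cortex of P350 (0.0386) or skeletal muscle of P348 (0.0191). MARCO also passed with peaks of a q-value under 0.01 (0.0138) or 0.0001 (0.0159), lists of equal length (0.010), 50 kb around genes (0.00699), peak numbers (0.0222) and centred libraries (0.0150). With peaks of a q-value under 0.0001 the calls of SPI1 (0.357) and CD68 (0.117) were lost. That of SPI1 was also lost with 2 kb around genes (0.0615), undivided bases (0.0580) and centred libraries (0.206). The call of CD163 was also lost with no filter (0.0566) and with 2 kb (0.0907), and that of CD14 without bases near other genes' starts (0.0713) and with peak numbers (0.213).

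In spleen, CSF1R and CD68 were higher than in the mean of the other 7 tissues. All genes tested had a median difference of 0.29 on the log2 scale in this comparison, with 14% of them called higher and 3.75% lower. The genes called fell from 3478 to 285 without spleen of P348 and to 620 without spleen of P350, and the higher ones were the minority with undivided bases (263 of 1247) and with centred libraries (919 of 2519). CSF1R was higher by 1.60 ± 0.30 (SE; limma, adjusted p = 0.00520), or 1.31 above the median gene. CD68 was higher by 0.80 ± 0.25 (SE; limma, adjusted p = 0.0458), or 0.51 above it. The differences of CD163 (0.83, adjusted p = 0.0817 with limma), SPI1 (0.40), MARCO (0.23) and CD14 (-0.09) did not pass. The median over the 6 genes was 0.60.

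The spleen call of CSF1R was lost without spleen of P348 (limma, adjusted p = 0.110) and for bases not divided by the library total (0.104), and an exact two-sided permutation test over libraries gave p = 0.0583, where 0.00833 is the smallest possible. The call of CD68 was lost in 20 of 30 alternatives, among them the animal as replicate block (limma, adjusted p = 0.0578) and each of 11 single libraries left out, with an adjusted p of 0.264 without spleen of P348. The T cell markers, which mark other cells of the spleen, were called higher there for 6 of 6 genes, the B cell markers for 4 of 6 and the neutrophil markers for 1 of 5. Their part in the result was not tested.

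In lung and in liver, 0 of 6 genes passed the test, where 0.0356% and 0.85% of all genes did (limma, adjusted p under 0.05). At an unadjusted p under 0.05 (limma), 0 members passed in lung, where 2510 of 19638 genes did. In liver, where 3033 of 19638 genes did, 1 member passed, which was CD14 at 0.82 ± 0.31 (SE). With 7 genes called in lung and 167 in liver, the test found few genes anywhere in these tissues. In adipose, CSF1R was lower by -1.22 ± 0.30 (SE; limma, adjusted p = 0.0436), where 1.08% of genes were called lower, 2.41% higher, and the median gene differed by 0.15. CD14 was at 0.97 ± 0.31 (SE) in adipose and did not pass (limma, adjusted p = 0.0932). The adipose call of CSF1R was lost in 20 of 30 alternatives, among them the replicate block (limma, adjusted p = 0.0567), and without adipose of P348 (0.117) or of P350 (0.370).

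In the 3 brain tissues together, CSF1R (-1.08 ± 0.20), SPI1 (-0.98 ± 0.21), CD14 (-0.96 ± 0.21) and CD68 (-0.86 ± 0.17; all log2 difference ± SE) were lower than in the other 5 tissues. The adjusted p from limma was 0.00127, 0.00269, 0.00284 and 0.00176 in that order. Of all genes, 46.4% were called lower and 10.1% higher, and the median gene differed by -0.42. With each library centred on its median gene the direction of the calls turned, and 4005 of 6107 were higher. Relative to that median the 4 genes were lower by -0.66, -0.56, -0.54 and -0.44. CD163 (0.00) and MARCO (0.36) did not pass, and stood 0.42 and 0.78 above the median gene. The brain libraries overlapped the others at each of the 6 genes, whereas 1.29% of all genes had every brain library below the others and 0.397% above.

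The brain differences rested in part on cerebellum. On the main measure SPI1, CD14 and CD68 were below every other library there, as were 33.8% of all genes. With cerebellum left out the differences were -0.59 for CSF1R, -0.67 for SPI1, -0.57 for CD14 and -0.46 for CD68, and none of the 4 passed (limma, adjusted p of 0.0770, 0.0879, 0.0743 and 0.0518). CD163 then stood at -0.38. An exact two-sided permutation test over libraries, with cerebellum kept, gave p = 0.000624 for SPI1, 0.00549 for CD68, 0.0104 for CD14 and 0.0501 for CSF1R. That test treats libraries as exchangeable, but the 6 brain libraries are 3 tissues of the same 2 animals. Its p-values therefore do not measure the spread between tissues. Once each library was centred on its median gene, SPI1 no longer passed (limma, adjusted p = 0.0570) and MARCO was called higher in brain (0.82, adjusted p = 0.0281).

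**Figure D4:**
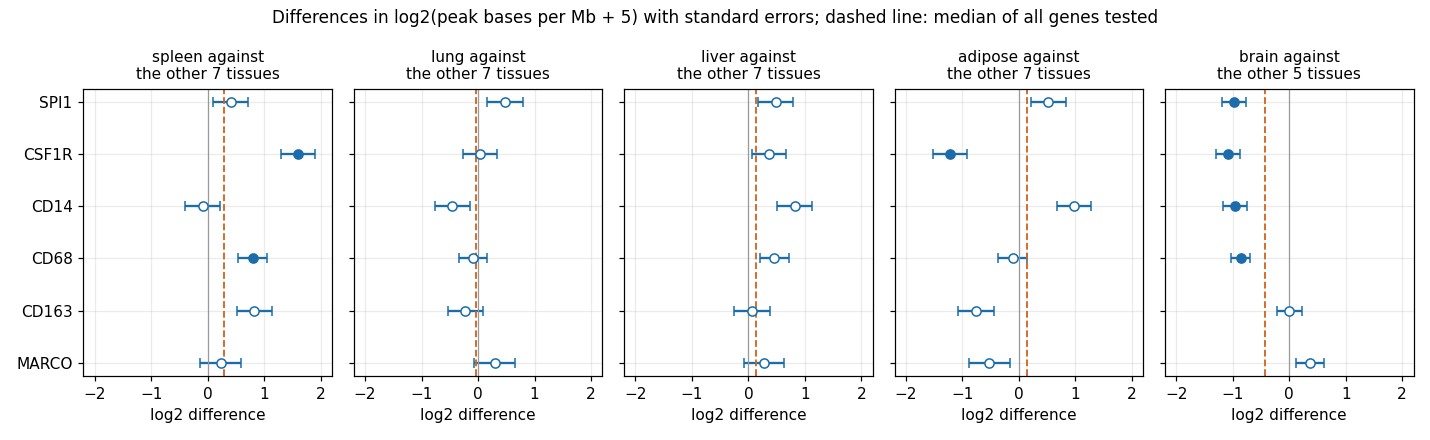
Log2 difference (horizontal axis) of each of the 6 genes in 5 comparisons, with standard errors. Filled points passed an adjusted p of 0.05 and the dashed line is the median of all 19638 genes, which lies at -0.42 for brain and 0.29 for spleen.

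Other genes of the macrophage programme were read in the same fit, as 4 lists. Their counts were not read under the other settings, some of which changed the calls among all genes. In spleen, 8 of 12 myeloid transcription factors were called higher and none lower, with a median difference of 0.78 against 0.29 for all genes, of which 14% were called higher. The T and B cell markers were called higher there for 6 of 6 and 4 of 6 genes, and their part in the lists' counts was not tested. Among the transcription factors called higher were SPIC (1.81), a factor of red pulp macrophages, TFEC (1.48), IRF5 (1.17) and IRF8 (1.26), a partner of PU.1. Of the growth factors and their receptors, 3 of 9 tested were higher, namely CCR2 (1.54), CSF3R (1.18) and TGFBR2 (0.88). CSF3R is also the neutrophil marker that was counted as higher in spleen. Of the surface receptors, 8 of 19 were higher, including the costimulatory ligand CD86 (1.80), CD200R1 (2.28), the complement receptor VSIG4 (1.34) and the phosphatidylserine receptor TIMD4 (1.88). Of the lysosome and effector genes, 10 of 19 were higher, including the protease CTSS (2.07) and the complement genes C1QC (1.14), C1QB (1.38) and C1QA (1.07). C1QA, C1QB and C1QC are neighbours whose windows share peaks.

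In brain the same lists counted 6 of 12, 4 of 9, 9 of 19 and 14 of 19 genes lower, beside 46.4% of all genes. The medians were -0.48, -0.42, -0.50 and -0.68, against -0.42 for all genes. The integrin ITGAM (-2.18), the sialic acid receptor SIGLEC1 (-1.22), CTSS (-1.39) and the iron exporter SLC40A1 (-1.15) were among those called lower. TFEC was called higher (0.61). Of 8 microglia markers, P2RY12, a purine receptor of microglia, was called higher in brain (0.64; limma, adjusted p = 0.0201), as were 10.1% of all genes, and none lower, and their median was -0.24. In spleen 4 of these 8 were called higher, beside 14% of all genes, with GPR34 at 2.90. In adipose FLT3 (1.43) was called higher, and TFEC (-1.41), VSIG4 (-1.12) and CD200R1 (-1.60) lower, beside 2.41% and 1.08% of all genes. In lung and liver no gene of the 4 lists was called.

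By the mean of both libraries, the markers of every macrophage subset had their highest summed level in spleen. Only those of red pulp macrophages therefore peaked in the tissue of their subset. The B cell, T cell and neutrophil markers were highest in spleen too, so that peak was not particular to the subset. Of the 5 red pulp markers, 2 were called higher in spleen, beside 14% of all genes. The summed level of the red pulp markers, lower library first, was 273 and 335 in spleen and 201 and 263 in liver, the next tissue. That of the Kupffer cell markers was 276 and 289 in spleen and 157 and 259 in liver. That of the alveolar macrophage markers was 241 and 285 in spleen, 214 and 252 in adipose and 193 and 217 in lung, with FABP4 at 0 in both libraries of liver, skeletal muscle, cerebral cortex and hypothalamus. That of the microglia markers was 250 and 361 in spleen and 191 and 205 in cerebral cortex, with GPR34 at 0 in both libraries of adipose, lung, hypothalamus and cerebellum.

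The members did not follow one pattern over the 16 libraries. Pearson's r of the log2 level was 0.82 between CD68 and CSF1R and 0.76 between CD14 and SPI1, CD68 and SPI1, and CD68 and CD14, but -0.54 between MARCO and CD14. MARCO and CD163 were at 0.52. The genes most like each member, by the same r over 16 libraries, were AJUBA (0.93), PPIH (0.92) and TMEM243 (0.90) for SPI1, and LAMTOR1 (0.95), PARP10 (0.94) and CSF3 (0.93) for CSF1R. For CD14 they were MAN2A2 (0.96), WSB1 (0.94) and TEN1 (0.94), and for CD68 SERTAD3 (0.98), ATG2A (0.97) and MNT (0.97). CD163 was most like JADE1 (0.79), LEF1 (0.77) and SLC9B1 (0.77), and MARCO most like ADAM3A (0.83), CLEC2B (0.80) and TRPC6 (0.80). These values are descriptions. The libraries share 2 animals and 8 tissues and differ in list length.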

How the data were processed

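ATAC-seq libraries were sequenced by the authors and processed, per the submitters' processing notes, with Trim Galore 0.4.5, BWA 0.7.17, SAMtools 1.10 and Picard 2.18.17, after which the authors ran MACS2 on each library separately (broad peaks, q-value limit of 0.05). The deposited lists give, per library, each peak's score, its fold enrichment (a ratio), its −log10 p-value and its −log10 q-value. They hold no counts, so intervals of counting error were not computed. Names of all 270 sequences with peaks matched the Sscrofa11.1 assembly, the build of the lists.

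Peak bases in each protein-coding gene with 10 kb on either side were divided by all peak bases of the library (per Mb). The values were fitted as log2(value + 5) for 19638 genes with a peak in at least 2 of 16 libraries, by limma 3.58.1 (R 4.3.3) with a mean for each tissue and a mean-variance trend, without a block. Fold changes on this scale understate those of low genes. P-values were adjusted by Benjamini-Hochberg over all genes tested. Single values were also tested by exact two-sided permutation over libraries. This permutation treats all 16 libraries as exchangeable, although they are pairs from 8 tissues of the same 2 animals. Same-numbered libraries come from the same animal and so are paired across tissues. Their deviations from tissue means correlated at -0.0041 on average (-0.215 to 0.158 over 28 pairs).

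Regions are peaks of the 16 libraries merged where they share a base, so that a region can join peaks that do not touch each other. The named genes are the 6 members, the 3 genes most correlated with each outside its window, genes that start in a window, up to 4 genes per list with the lowest adjusted p, and regions near a start or open in most libraries. Sequences were read from the RefSeq genome of the same build. Promoters are shown where more than 1 library had a peak over the start, and one that met this is not reported here. The members and lists were chosen with earlier results of these data known. Lists of cattle were not used here.

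Alternatives were pseudocounts of 1 and 20, no filter, q-values under 0.01 and 0.0001, lists of equal length, other windows and measures, the animal as block, and leaving out each library.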

Additional observations from a re-analysis of the deposited data

How the results depend on the processing

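The genes called at first numbered 14047 in the tissue test, 3478 in spleen, 7 in lung, 167 in liver, 685 in adipose and 11090 in brain. With a pseudocount of 1, the genes called numbered 17 in lung, 107 in liver and 380 in adipose and the sign turned for CD163 in brain (-0.031). With a pseudocount of 20, the genes called numbered 273 in liver and 1087 in adipose. With no filter on genes, the genes called numbered 79 in lung and 253 in liver. With peaks of a q-value under 0.01, the genes called numbered 93 in lung, 496 in liver and 2419 in adipose and the sign turned for MARCO in lung (-0.32), CD163 in brain (-0.065) and MARCO in brain (-0.055). With peaks of a q-value under 0.0001, the genes called numbered 695 in lung, 1189 in liver, 8491 in adipose and 4002 in brain and the sign turned for SPI1 in spleen (-0.085), MARCO in spleen (-0.20), MARCO in lung (-0.47), CD163 in brain (-0.72) and MARCO in brain (-0.013). With lists of equal length, the genes called numbered 1434 in spleen, 32 in lung and 346 in liver and the sign turned for MARCO in lung (-0.19) and CD163 in brain (-0.26). With 2 kb around genes, the sign turned for MARCO in spleen (-0.18) and CD163 in brain (-0.12). With 50 kb around genes, the genes called numbered 0 in lung and 91 in liver and the sign turned for CD14 in spleen (0.24), MARCO in spleen (-0.14) and MARCO in liver (-0.024). With peak numbers per 100000 peaks, the genes called numbered 19 in lung and the sign turned for CD14 in spleen (0.13). With undivided bases, the genes called numbered 1247 in spleen, 400 in lung, 28 in liver and 7270 in brain and the sign turned for SPI1 in spleen (-0.079), MARCO in spleen (-0.28) and MARCO in liver (-0.083). With the animal as replicate block, the genes called numbered 2 in lung. With libraries centred on the median gene, the genes called numbered 109 in liver and 6107 in brain and the sign turned for MARCO in spleen (-0.11). Leaving out cerebellum, the genes called numbered 3581 in brain and the sign turned for CD163 in brain (-0.38). Leaving out 1 library at a time gave 27 to 1706 calls in adipose, 8568 to 11985 calls in brain, 0 to 486 calls in liver, 0 to 155 calls in lung, 285 to 5081 calls in spleen and 10172 to 14192 calls in the tissue test. The lowest spleen counts were 285 without spleen of P348 and 620 without spleen of P350, those of adipose 139 and 27 without its own libraries, and that of liver 0 without liver of P348. Without cerebellum of P350 the counts were highest in lung, liver and adipose. Lung had 0 calls without either cerebral cortex or either skeletal muscle library, by limma, where 2510 genes had an unadjusted p under 0.05 in the full set. Over the same omissions the sign turned for CD163 in brain (-0.18 to 0.18), MARCO in lung (-0.13 to 0.73), SPI1 in spleen (-0.046 to 0.85) and CD14 in spleen (-0.47 to 0.30), none of them called at first. Of genes called in spleen, 2741 of 3478 were higher, against 263 of 1247 with undivided bases and 919 of 2519 with centred libraries. In brain 1981 of 11090 were higher, against 4005 of 6107 with centred libraries. The replicate block changed no member's call other than those of CD68 in spleen and CSF1R in adipose given above. Peaks within 2 kb of a start, summed over the 6 genes and 16 libraries, fell from 60 to 30 at a q-value under 0.0001, where MARCO and CD163 had 0. The calls of SPI1, CSF1R and CD68 in brain were also lost at that q-value, and that of CD14 without bases near other genes' starts and with peak numbers. CD163 was called higher in spleen at a q-value under 0.0001, with 50 kb and with peak numbers, and SPI1 with peak numbers. CD14 was called higher in adipose and in liver at q-values under 0.01 and 0.0001 and with lists of equal length, in adipose also without cerebellum of P350 and in liver also with 2 kb around genes. Centring and leaving out cerebellum were chosen after seeing the data. The cause of these changes was not tested. Peak lists hold no read counts, so the depth behind each value is unknown here, and differences below the threshold of peak calling were not detectable.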
